A study of Mus musculus with 6 samples.

Results

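The nuclear genes for the subunits of the 5 oxidative phosphorylation complexes were followed in mouse embryonic stem cells with reduced Srrm2, using total RNA-seq. Members were the protein-coding genes with a symbol that starts with Ndufa, Ndufb, Ndufc, Ndufs or Ndufv and a digit (complex I), is Sdha, Sdhb, Sdhc or Sdhd (complex II), starts with Uqcr (complex III), with Cox and a digit from 4 to 8 (complex IV) or with Atp5 (complex V). The rule used no expression value. It took 85 annotated genes, of which 84 were in the deposited table of 42450 genes: 37 of complex I, 4 of complex II, 8 of complex III, 18 of complex IV and 17 of complex V. After a filter on low counts, 82 of them entered the test, among 18905 genes tested in all, and Cox8b and Cox8c did not.

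The WT group was the parental line E14tg2a.4, and the Srrm2+/- group was a heterozygous gene-trap line derived from it, which is a single clone. Both groups were grown in serum-free ESGRO medium with LIF before collection, and each gave 3 libraries. Per the study's methods, the replicates of a line were frozen at different passages in independent batches, and the WT passages were the higher ones, so passage and genotype cannot be told apart. The comparison asks how subunit genes stand when Srrm2, which encodes a splicing factor and nuclear speckle scaffold, is reduced.

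Oxidative phosphorylation takes electrons from NADH (complex I) and succinate (complex II) through complex III and cytochrome c to complex IV, where oxygen is reduced, and complex V (ATP synthase) uses the resulting proton gradient to make ATP. Most subunits are encoded in the nucleus and imported, and mitochondrial DNA encodes a small set of subunits of every complex but complex II. Several subunits of complex IV exist as paralogous isoforms limited to muscle, lung or testis. Pluripotent stem cells in culture are known to rely heavily on glycolysis while keeping an active respiratory chain.

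Library totals lay between 54151532 and 69933465 estimated counts, and mitochondrially encoded genes took 2.59% to 2.85% of them, with overlap between the groups. Srrm2 fell from 95.7 ± 3.94 to 59.3 ± 3.02 CPM (counts relative to library size, adjusted for composition; mean ± SD, n = 3 per group), a log2 fold change of -0.69 (SE 0.05, adjusted p = 2.38e-05), as the labels state. The 7 pluripotency markers summed to 5015 to 5197 CPM in WT and 4362 to 4469 CPM in Srrm2+/- libraries, and 5 of them (Sox2, Nanog, Zfp42, Esrrb and Dppa5a) were downregulated. Summed markers of other cell types were far lower: 3.36 to 3.63 against 6.47 to 9.85 CPM for 5 fibroblast genes, 1.40 to 2.21 against 3.97 to 4.64 CPM for 5 mesoderm genes, 2.33 to 2.70 against 2.55 to 3.57 CPM for 6 primitive endoderm genes and 2.20 to 2.40 against 2.70 to 3.23 CPM for 6 trophectoderm genes. The 5 neural genes summed to 98.6 to 102.6 CPM in WT and 73.3 to 77.9 CPM in Srrm2+/- libraries, with 1 gene upregulated and 2 downregulated. Sums hide mixed directions elsewhere too. The fibroblast list had 3 genes upregulated and the primitive endoderm list 1. Their lowest log2 fold changes, -0.70 and -0.77, were not called. The mesoderm and trophectoderm lists also had 1 upregulated gene each and no downregulated one, although DESeq2 called no trophectoderm gene. Several of these cell-state markers moved with genotype, as did passage, and their part in the results below was not tested. In bulk RNA, fewer cells of a type and less RNA per cell cannot be told apart.

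As a group, the subunit genes moved little. Of the 82 tested members, 4 were upregulated and 11 downregulated at an adjusted p under 0.05 (edgeR quasi-likelihood test, Benjamini-Hochberg over all tested genes), and 67 were not called. This is 18.3% of the members, against a background of 25.3% of all tested genes (13.6% upregulated and 11.7% downregulated). Members called up made 4.88% and members called down 13.4%. Against all tested genes, the rise share lay below its background and the fall share near it. Among the 8021 tested protein-coding genes with a mean of at least 10 CPM, a set closer in level to the members, 32.7% were called. There 15.7% were upregulated and 17.0% downregulated, so both member shares lay below those of this set.

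The changes were small for nearly every member. The median log2 fold change was -0.08 over the members and 0.00 over all tested genes. A value below 0 was found in 58 of the 82 members and in 9517 of all 18905 tested genes. In 78 of 82 members the fitted change was under 1.5-fold, and Cox6b2 was the single called member beyond that size. The other 3 (Ndufa4, Ndufa4l2 and Ndufa9) had low or scattered counts and were not called. The 3 WT values did not overlap the 3 Srrm2+/- values in 34 members (41.5%), 26 lower and 8 higher in Srrm2+/- cells. Groups also did not overlap for 41.4% of all tested genes and 49.8% of protein-coding genes with at least 10 CPM. The directions were not counted for those sets. The 58 uncalled members with at least 10 CPM had log2 fold changes from -0.17 to 0.19 with SEs from 0.03 to 0.10, and the median SD between WT replicates was 3.76% of the mean for the 73 members at that level.

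Summing the members gave a slightly lower total in the Srrm2+/- line. The 84 genes together held 10327, 10421 and 10325 CPM in the WT libraries and 10040, 9910 and 9841 CPM in the Srrm2+/- libraries. The ratio of the means was 0.959, and the groups did not overlap. The sum did not overlap for complex I (2443 ± 53.0 against 2322 ± 47.1 CPM, ratio 0.951), complex II (530 ± 12.1 against 481 ± 2.49 CPM, ratio 0.908) and complex V (4537 ± 43.3 against 4337 ± 40.4 CPM, ratio 0.956). It did overlap for complex III (893 ± 13.5 against 871 ± 13.6 CPM, ratio 0.976) and complex IV (1955 ± 31.6 against 1918 ± 24.9 CPM, ratio 0.981). These are SDs over 3 libraries, and no test was made on the sums.

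**Figure D1:**
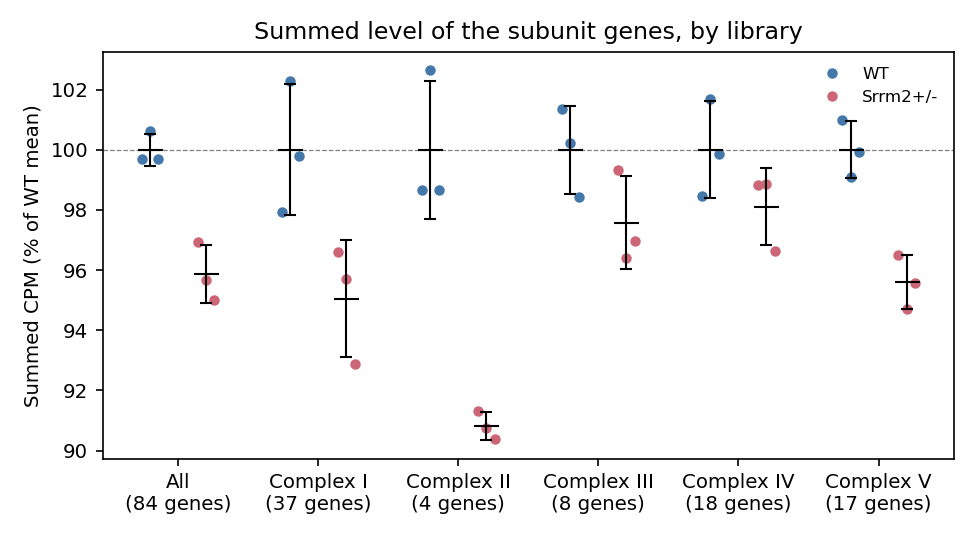
Summed CPM of the member genes in each library, as a percentage of the WT mean, for all members and for each complex (points: libraries; black marks: mean ± SD, n = 3 per group; the vertical axis does not start at 0). The Srrm2+/- points lie below all WT points for the whole set and for complexes I, II and V, with the lowest ratio, 0.908, in complex II.

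**Figure D2:**
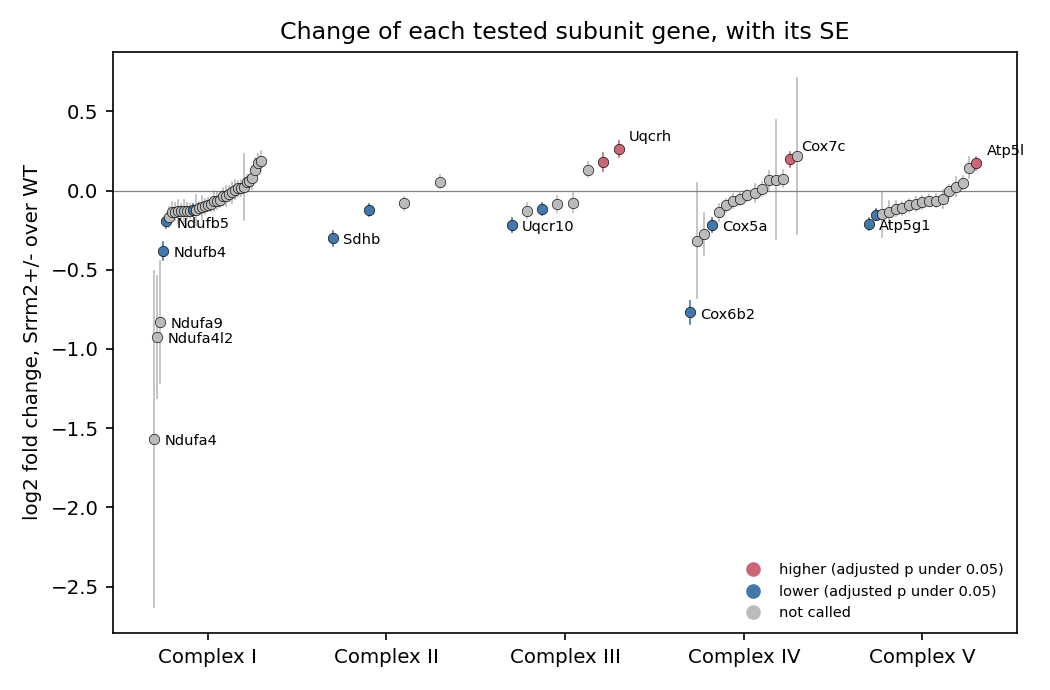
log2 fold change of Srrm2+/- over WT for each of the 82 tested members, ordered within its complex (points: fitted values; lines: ± 1 SE; colour: call at an adjusted p under 0.05). Nearly all points lie close to 0, Cox6b2 stands at -0.77 with a short error line, and the low-count genes Ndufa4, Ndufa4l2 and Ndufa9 have long ones.

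Per length, the members spanned a wide range of levels in WT cells. Values were computed as counts per kilobase of the median protein-coding transcript, scaled to the same total in each library (TPM-like). On this scale 39 members lay at 100 or more, 35 from 10 to under 100, 5 from 1 to under 10 and 5 under 1, with a median of 87.5. Atp5b, the catalytic beta subunit of ATP synthase, was the highest at 761.5 ± 42.3, ahead of Atp5a1, its alpha subunit, at 364.5 ± 25.4. Cox4i1, a complex IV subunit, stood at 363.7 ± 8.81, which did not differ from Atp5a1 beyond their spread. With the union of annotated exons as the length, Atp5b remained above Atp5a1 (491.3 against 426.8) and Cox4i1 came to 249.3.

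A few promoters are shown before the single genes, chosen to set members called down, called up and not called side by side: Cox6b2 with its ubiquitous counterpart Cox6b1, the complex II iron-sulphur subunit Sdhb, and the complex III members Uqcr10 (down) and Uqcrh (up). Each window is from RefSeq on GRCm38.p6 and runs 5′ to 3′ from 250 bases before the gene start through its first 50 transcribed bases. Capitals mark matches, on either strand, to 4 short motifs of factors known to act on respiratory genes: CCGGAAG (core of ETS factors such as GABP), GCGCATGC (NRF1 core), AAGGTCA (core of oestrogen-related receptor sites) and GCCATNTT (YY1). No capital runs overlap each other in these windows.
Cox6b2, chr7:4753045-4753344, minus strand: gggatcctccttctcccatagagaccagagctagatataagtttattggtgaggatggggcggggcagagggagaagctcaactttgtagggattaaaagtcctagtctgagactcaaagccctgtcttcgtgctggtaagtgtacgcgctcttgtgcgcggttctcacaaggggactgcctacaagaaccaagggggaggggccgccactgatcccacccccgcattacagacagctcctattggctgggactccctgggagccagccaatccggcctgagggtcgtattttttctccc
Cox6b1, chr7:30626065-30626364, minus strand: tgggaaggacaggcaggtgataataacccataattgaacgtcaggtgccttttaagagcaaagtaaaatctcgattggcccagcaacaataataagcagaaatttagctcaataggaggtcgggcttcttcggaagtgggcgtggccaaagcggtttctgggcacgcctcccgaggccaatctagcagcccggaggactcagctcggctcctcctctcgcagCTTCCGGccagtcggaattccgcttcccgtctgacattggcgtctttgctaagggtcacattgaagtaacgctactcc
Sdhb, chr4:140961021-140961320, plus strand: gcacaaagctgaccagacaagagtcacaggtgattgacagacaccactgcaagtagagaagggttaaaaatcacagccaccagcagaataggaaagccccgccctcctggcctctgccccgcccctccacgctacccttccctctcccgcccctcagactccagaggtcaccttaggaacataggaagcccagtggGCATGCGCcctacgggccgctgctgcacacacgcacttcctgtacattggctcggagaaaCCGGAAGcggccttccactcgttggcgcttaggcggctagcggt
Uqcr10, chr11:4704295-4704594, minus strand: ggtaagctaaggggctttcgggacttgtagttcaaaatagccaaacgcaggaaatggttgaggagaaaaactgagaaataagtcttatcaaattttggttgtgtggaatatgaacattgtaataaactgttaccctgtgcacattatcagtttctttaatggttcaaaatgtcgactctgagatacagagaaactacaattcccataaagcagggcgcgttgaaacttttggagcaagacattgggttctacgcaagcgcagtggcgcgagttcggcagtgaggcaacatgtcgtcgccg
Uqcrh, chr4:116075021-116075320, minus strand: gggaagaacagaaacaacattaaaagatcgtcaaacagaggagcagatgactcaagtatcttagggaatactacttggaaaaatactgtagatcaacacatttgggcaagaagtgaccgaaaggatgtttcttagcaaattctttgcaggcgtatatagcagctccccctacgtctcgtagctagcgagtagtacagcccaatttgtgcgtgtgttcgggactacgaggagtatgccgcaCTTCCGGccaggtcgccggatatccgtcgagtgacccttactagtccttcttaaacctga

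The Cox6b2 and Uqcr10 windows held none of the 4 motifs, Cox6b1 and Uqcrh held 1 ETS match each, and Sdhb held 1 ETS and 1 NRF1 match. CpG dinucleotides numbered 10 in the Cox6b2 window and 17 in that of Cox6b1, with a median of 19 over member windows and 7 over all windows. Windows were matched for 68 of the 84 members (73 windows). ETS matches occurred in 21.9% of member windows and 8.86% of all 32851 windows of this length in the table, NRF1 in 13.7% and 2.71%, the oestrogen-related receptor core in 11.0% and 4.72%, and YY1 in 23.3% and 6.05%. Of the 4 windows of upregulated members, 3 held an ETS, 2 an NRF1, 1 an oestrogen-related receptor and 0 a YY1 match. Of the 10 windows of downregulated members, 2 held an ETS and 1 each of the other motifs, and of the 58 windows of uncalled members 11 held an ETS, 7 an NRF1, 6 an oestrogen-related receptor and 16 a YY1 match. A match is a run of letters and not a bound site, and these shares are descriptions without a test. The ETS and NRF1 letters each contain a CpG, and member windows held more CpG than all windows. The shares were not compared at equal CpG content, and its part in them was not tested.

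Complex IV held the largest called change of all members, and it was in an isoform gene. Cox6b2 encodes the testis isoform of subunit VIb, which lies on the intermembrane-space side of the complex, and the gene is at chr7:4751792-4753094 (GRCm38, minus strand). It stood at 15.7, 16.7 and 14.5 CPM in the WT libraries and at 9.002, 8.86 and 9.64 CPM in the Srrm2+/- libraries. The groups lay far apart, with the lowest WT library above the highest Srrm2+/- library. The log2 fold change was -0.77 (SE 0.07, adjusted p = 0.000119), a fall by 41.4%, and it was called in all 15 alternative analyses (other scalings, filters and tools, counts summed with copies, a replicate block and left-out libraries), where it ranged from -0.82 to -0.72. None of its 31-base words (every run of 31 bases of its transcripts) occurred in transcripts of other annotated genes. The summing with copies therefore left its counts unchanged.

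Its ubiquitous counterpart Cox6b1 was not called. The 3 WT libraries held 115.0, 120.6 and 110.0 CPM and the Srrm2+/- libraries 113.6, 118.9 and 116.0 CPM of Cox6b1, so the groups overlapped (log2 fold change 0.01, SE 0.04, adjusted p = 0.879). Per length, Cox6b2 made up 13.2%, 13.4% and 12.9% of the pair in WT and 8.13%, 7.69% and 8.50% in Srrm2+/- libraries. With the union of exons as the length these means became 7.97% ± 0.173 and 4.80% ± 0.25. Germ cell markers, added because testis cells express Cox6b2, summed to 151.7 to 158.8 CPM in WT and 133.3 to 140.4 CPM in Srrm2+/- libraries over 5 genes. Most of that was Sycp3, a meiotic chromosome axis gene, which fell from 129.8 to 112.1 CPM (log2 fold change -0.21, SE 0.04, adjusted p = 0.00744). Dazl, a germ cell RNA-binding protein gene, had 5.33, 5.21 and 4.05 CPM in WT and 3.31, 3.97 and 3.48 CPM in Srrm2+/- libraries, without overlap (log2 fold change -0.44, SE 0.14, adjusted p = 0.0503), and passed the threshold as lower in 6 of 15 alternatives, DESeq2 and limma voom among them. Ddx4 was not called (log2 fold change 0.05, adjusted p = 0.67), and the spermatid genes Tnp1 and Prm1 were near 0 in all libraries. The part of these markers in the fall of Cox6b2 was not tested.

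**Figure D3:**
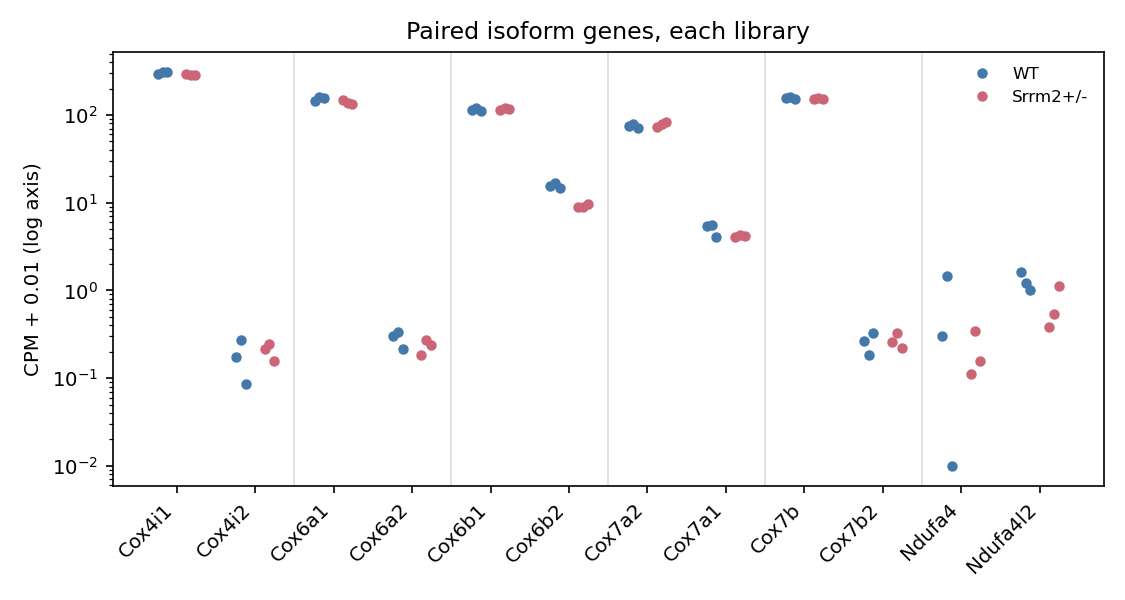
CPM plus 0.01, on a log axis, of ubiquitous and restricted isoform genes in each of the 6 libraries, with pairs separated by grey lines. Cox6b2 is the restricted complex IV isoform with the highest level and the one whose groups are clearly apart, while Cox4i2, Cox6a2 and Cox7b2 lie under 0.4 CPM in every library.

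The other restricted isoforms of complex IV were low and were not called. Cox7a1, the heart and skeletal muscle isoform of subunit VIIa, had 5.44, 5.52 and 4.09 CPM in WT and 4.10, 4.23 and 4.12 CPM in Srrm2+/- libraries (log2 fold change -0.27, SE 0.13, adjusted p = 0.179). One WT library lay at the Srrm2+/- level, and the call was made only without that library, WT replicate 3 (adjusted p = 0.0383). Per length, its share of the pair with Cox7a2 was 9.08% ± 0.946 in WT and 7.37% ± 0.426 in Srrm2+/- libraries (SD, n = 3 per group), without overlap, also with the union of exons as the length. Markers of heart and skeletal muscle summed to 2.50 to 3.37 CPM in WT and 3.25 to 3.71 CPM in Srrm2+/- libraries over 6 genes, Ckm being at 0 throughout and Myh7 upregulated. Cox4i2 (lung isoform of subunit IV), Cox6a2 (muscle isoform of subunit VIa) and Cox7b2 (testis isoform of subunit VIIb) had means between 0.165 and 0.274 CPM in both groups. Cox8b and Cox8c reached at most 6 counts in any library. Their widespread counterparts Cox4i1 (305.6 to 286.8 CPM), Cox6a1 (153.1 to 139.1), Cox7a2 (75.0 to 78.5), Cox7b (156.6 to 153.3) and Cox8a (196.9 to 188.0 CPM) were not called. Neither was Cox7a2l (196.5 to 207.1 CPM), a gene related to Cox7a2. The log2 fold changes of these genes ran from -0.14 to 0.08. Cox6a1 passed the threshold as lower without WT replicate 1 (adjusted p = 0.049) or Srrm2+/- replicate 1 (adjusted p = 0.0416).

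Among the other complex IV members, 1 fell and 1 rose. Cox5a, a matrix-side subunit present in all tissues, had 119.7, 123.0 and 124.4 CPM in WT and 111.3, 103.8 and 100.8 CPM in Srrm2+/- libraries. All Srrm2+/- values lay below the WT ones, and the fall was called in all alternatives (log2 fold change -0.22, SE 0.05, adjusted p = 0.00774). Cox7c, a small membrane subunit, had 192.5, 178.7 and 187.7 CPM in WT and 203.6, 222.8 and 215.1 CPM in Srrm2+/- libraries, without overlap (log2 fold change 0.20, SE 0.05, adjusted p = 0.0142). That call was lost without WT replicate 2 (adjusted p = 0.0529) or Srrm2+/- replicate 2 (adjusted p = 0.0543). Of the 16 tested members of complex IV, 13 were not called, and the median log2 fold change was -0.04, or -0.073 without WT replicate 3 and -0.062 without Srrm2+/- replicate 2.

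Cox7c also shares sequence with expressed pseudogenes. In the annotation used here 24.5% of its words occur in other genes, and its pseudogene Gm12338 lies wholly inside its sequence. The pseudogenes of Cox7c received 25.1% of the reads of the set, and Gm12338 had a log2 fold change of -0.05 (SE 0.06, adjusted p = 0.642). With the counts summed, the rise was smaller (log2 fold change 0.14, SE 0.04, adjusted p = 0.0459).

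Complex II had the lowest ratio of summed levels, and both of its catalytic subunits were downregulated. Sdhb, the iron-sulphur subunit that passes electrons from succinate to ubiquinone (chr4:140961203-140979193, plus strand), had 157.9, 174.8 and 158.5 CPM in WT and 133.5, 135.1 and 130.4 CPM in Srrm2+/- libraries. The Srrm2+/- values were close together and below every WT value. Sdhb fell by 18.8% (log2 fold change -0.30, SE 0.05, adjusted p = 0.00189) and was called in all 15 alternatives. None of its words occurred in other genes, so the summing with copies left its counts unchanged.

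Sdha, the flavoprotein that oxidises succinate, was lower by less. It had 215.1, 222.7 and 218.1 CPM in WT and 203.3, 197.7 and 201.4 CPM in Srrm2+/- libraries, without overlap (log2 fold change -0.12, SE 0.04, adjusted p = 0.0347). The call was lost in 7 of the 15 alternatives, among them leaving out any library but WT replicate 1 (adjusted p from 0.0573 to 0.117). The membrane anchors Sdhc (61.9 to 58.5 CPM, adjusted p = 0.209) and Sdhd (85.7 to 89.2 CPM, adjusted p = 0.367) were not called, and no complex II member was upregulated in edgeR, also at an unadjusted p under 0.05, or in DESeq2 or limma voom.

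Complex III members were called in both directions. Uqcrh, the acidic hinge protein that lies next to cytochrome c1 (chr4:116066965-116075071, minus strand), had 80.3, 78.5 and 74.9 CPM in WT and 88.0, 95.7 and 96.5 CPM in Srrm2+/- libraries. The groups did not overlap, and with a log2 fold change of 0.26 (SE 0.05, adjusted p = 0.0043) it showed the largest called rise among the members. It was called in all 15 alternatives, although the summing with copies left its counts unchanged. Uqcr11, a small subunit, rose in the main test (53.2 ± 1.41 to 60.4 ± 4.45 CPM, log2 fold change 0.18, SE 0.06, adjusted p = 0.0452), but the call was lost in 7 of 15 alternatives, including each left-out library except Srrm2+/- replicate 1 (adjusted p from 0.0673 to 0.147).

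Uqcr10, a small membrane subunit near cytochrome c1 and the Rieske protein, moved the other way. It had 73.2, 77.9 and 72.2 CPM in WT and 63.1, 66.3 and 62.7 CPM in Srrm2+/- libraries, a log2 fold change of -0.22 (SE 0.04, adjusted p = 0.00726), and was called in all alternatives. Uqcrc2, a core protein, fell from 221.1 ± 2.97 to 203.9 ± 5.16 CPM (log2 fold change -0.12, SE 0.04, adjusted p = 0.0488), a call lost in 8 of 15 alternatives and without any library but Srrm2+/- replicate 1 (adjusted p from 0.0833 to 0.154).

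The remaining complex III genes were not called. Uqcrc1, the other core protein, had 208.9, 199.0 and 207.0 CPM in WT and 213.3, 181.3 and 187.9 CPM in Srrm2+/- libraries, where replicate 1 was above all WT libraries (adjusted p = 0.404, and 0.0482 without that library). Uqcrfs1, the Rieske iron-sulphur protein, had 83.7, 75.7 and 78.7 CPM in WT and 88.7, 84.7 and 87.7 CPM in Srrm2+/- libraries, without overlap (log2 fold change 0.13, SE 0.05, adjusted p = 0.0668), and was called without WT replicate 1 (adjusted p = 0.0287). Uqcrb and Uqcrq had log2 fold changes of -0.13 and -0.08.

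**Figure D4:**
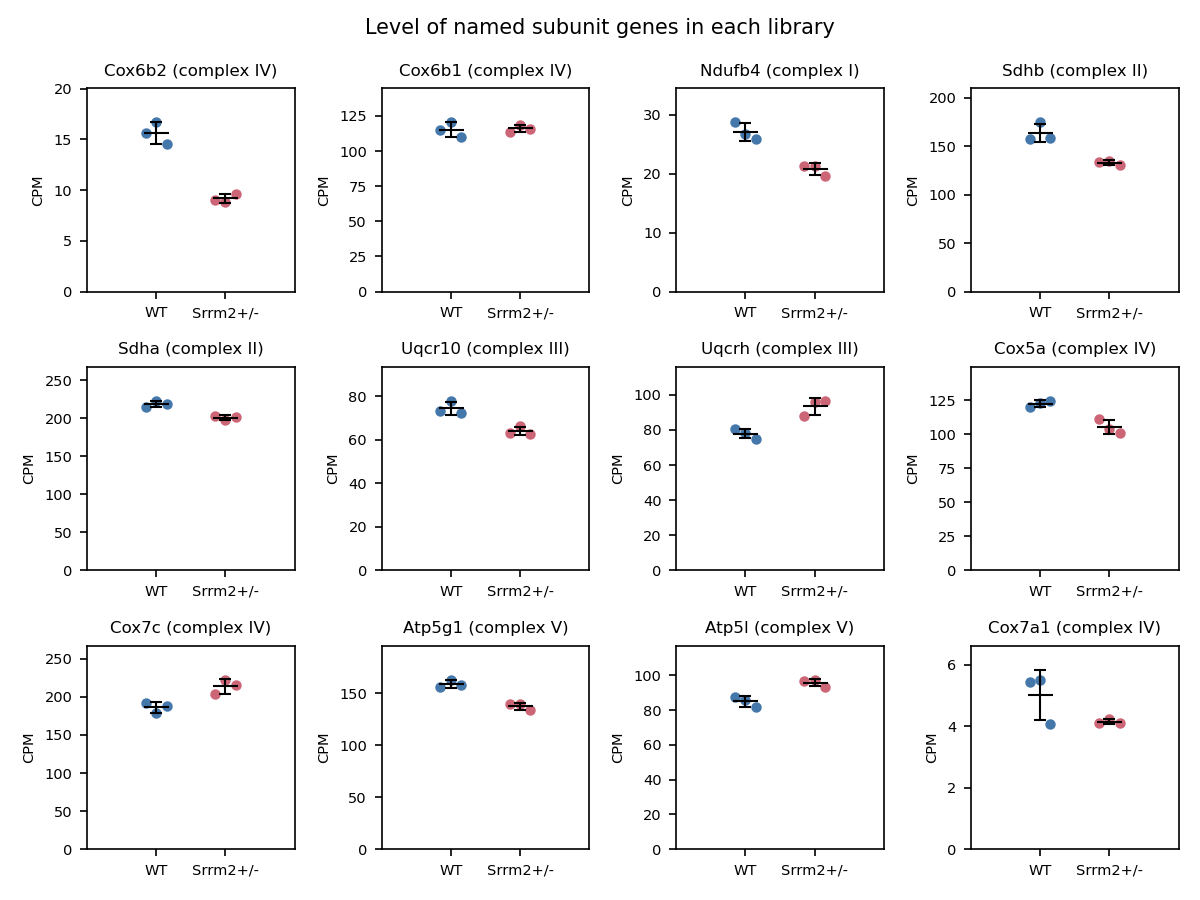
CPM of 12 member genes in each library (points: libraries; black marks: mean ± SD, n = 3 per group; each vertical axis starts at 0). Cox6b2, Ndufb4 and Sdhb show the largest falls among called members and Uqcrh the largest rise, while Cox6b1 overlaps between the groups and 1 WT library of Cox7a1 lies with the Srrm2+/- libraries.

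Complex I, which has the most members, had 3 downregulated and no upregulated gene among 37 in edgeR, with a median log2 fold change of -0.09. The called share was 8.11%, against 25.3% of all tested genes. At an unadjusted p under 0.05, 2 were higher and 10 lower, and the share of all tested genes at that threshold was not counted. DESeq2 and limma voom each called 0 higher and 4 lower in complex I. Over all genes DESeq2 called 2451 higher and 2130 lower, and limma voom 2568 higher and 2221 lower. The 7 nuclear core subunits, which carry the cofactors and the quinone site, had a median of -0.06, and the 30 other members -0.10. Ndufv1, the core subunit that binds FMN and NADH, had 159.6, 162.4 and 160.2 CPM in WT and 143.0, 150.6 and 149.1 CPM in Srrm2+/- libraries (log2 fold change -0.12, SE 0.04, adjusted p = 0.0373). The groups did not overlap, but the call was lost in 9 of 15 alternatives and whenever any library was left out (adjusted p from 0.0637 to 0.115). Ndufs1, the largest iron-sulphur core subunit, had 240.1, 226.4 and 233.3 CPM in WT and 214.7, 215.6 and 217.2 CPM in Srrm2+/- libraries (log2 fold change -0.11, SE 0.04, adjusted p = 0.0593), and passed the threshold in DESeq2 (adjusted p = 0.0337) and limma voom (adjusted p = 0.0449).

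The called accessory subunits of complex I both belong to its membrane arm. Ndufb4 had 28.7, 26.7 and 25.8 CPM in WT and 21.3, 21.4 and 19.7 CPM in Srrm2+/- libraries, a fall by 23.2% (log2 fold change -0.38, SE 0.06, adjusted p = 0.00181). The groups were clearly apart, and Ndufb4 was called in all 15 alternatives. It shares 19.1% of its words with other genes, and its processed copy Ndufb4c, wholly inside its sequence, held most of the reads of the pair (72.7%) and also fell (log2 fold change -0.30, SE 0.05, adjusted p = 0.00368). With both summed the log2 fold change was -0.32 (SE 0.04, adjusted p = 0.000805), the same direction as for either gene alone. Ndufb5 fell from 107.6 ± 2.13 to 94.1 ± 3.37 CPM (log2 fold change -0.19, SE 0.04, adjusted p = 0.00782) and was called in all alternatives.

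A few complex I members stood at levels far below the rest, and these values were looked at after they were seen. Ndufa4 had 16, 83 and 0 counts in WT and 7, 23 and 9 in Srrm2+/- libraries, which gives no usable fold (adjusted p = 0.332). Its product is known to be part of complex IV, although the symbol places it with complex I. Ndufa9 had 4.11, 5.36 and 9.41 CPM in WT and 2.73, 2.23 and 5.69 CPM in Srrm2+/- libraries, with overlap (log2 fold change -0.83, SE 0.38, adjusted p = 0.157). It was called in 2 of 15 alternatives, 1 of them without Srrm2+/- replicate 3 (adjusted p = 0.03). Ndufs8, a core subunit, had 4.80 ± 0.727 and 4.87 ± 1.47 CPM, while the other 6 core members had at least 39.8 CPM in WT. Their shares of words in other annotated genes were 2.2%, 4.6% and 0.0% respectively in the annotation used here, which is not the release the authors counted against, and the source of the low counts was not tested. Ndufa4l2, the hypoxia-inducible relative of Ndufa4, had 1.62, 1.19 and 0.99 CPM in WT and 0.376, 0.522 and 1.12 CPM in Srrm2+/- libraries, with overlap (adjusted p = 0.117), and was called without Srrm2+/- replicate 3 (adjusted p = 0.0151).

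Complex V contributed the most counts, and its catalytic genes were not called. Atp5b had 1640, 1618 and 1674 CPM in WT and 1592, 1497 and 1534 CPM in Srrm2+/- libraries. All Srrm2+/- values lay lower, yet the log2 fold change was -0.09 (SE 0.04, adjusted p = 0.122). Atp5a1 overlapped between the groups at 1056 ± 29.7 and 1052 ± 25.9 CPM (log2 fold change -0.01, SE 0.04, adjusted p = 0.938).

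The 3 genes for subunit c, which forms the rotating membrane ring and whose mature protein is the same from each, differed in their values. Atp5g1 had 156.3, 163.3 and 157.7 CPM in WT and 139.4, 139.4 and 133.6 CPM in Srrm2+/- libraries. The groups lay apart, and it fell by 13.6% (log2 fold change -0.21, SE 0.04, adjusted p = 0.00377), called in all 15 alternatives. Atp5g3 had 98.0 ± 0.865 and 93.7 ± 1.39 CPM (log2 fold change -0.06, SE 0.03, adjusted p = 0.222). Atp5g2 had 26.0 ± 2.25 and 23.6 ± 1.57 CPM (log2 fold change -0.14, SE 0.08, adjusted p = 0.225), but 88.5% of the reads of its set were on its copies, chiefly Gm10175, and the summed log2 fold change was -0.04 (adjusted p = 0.635). The difference between these 3 genes was not tested.

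Of the stalk and membrane subunits, Atp5h (subunit d) fell from 189.8 ± 2.7 to 170.7 ± 2.22 CPM (log2 fold change -0.15, SE 0.04, adjusted p = 0.0118) and was called in all alternatives. Atp5l (subunit g) had 87.8, 85.8 and 81.7 CPM in WT and 96.5, 97.6 and 93.5 CPM in Srrm2+/- libraries, without overlap (log2 fold change 0.17, SE 0.04, adjusted p = 0.0151). Its call was lost without WT replicate 3 (adjusted p = 0.0615) or Srrm2+/- replicate 2 (adjusted p = 0.0561). Copies of Atp5l held 13.9% of the reads of its set; the largest, Gm10221, also rose (log2 fold change 0.54, SE 0.16, adjusted p = 0.0343), and the summed value was 0.22 (SE 0.04, adjusted p = 0.00447). The other 14 members of complex V were not called.

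Calls were also counted by the sequence a member shares with other genes. Among the 41 tested members with under 5% of their words elsewhere, 0 were upregulated and 4 downregulated (Cox6b2, Sdhb, Sdha and Ndufv1), while among the 41 with 5% or more, 4 were upregulated and 7 downregulated. The called shares were 9.76% under 5% and 26.8% at 5% or more, against 25.3% of all tested genes. All 4 upregulated members share some sequence with other genes, from 6.7% of words in Uqcrh to 24.5% in Cox7c. The difference between members under 5% and those with 5% or more was not tested. With counts summed with copies, these 4 members were still called higher, and 11 members were called lower. Uqcrh had no gene that met the rule for summing, and the copy of Uqcr11 held 0.0% of the reads of its set. For Uqcrh and Uqcr11 the summing therefore could not test the rise. Another annotated gene overlaps 37 of the 84 members, on the opposite strand for 29 of them, and the strand setting of the counting was not given in the sources used here. One such gene is Mrpl47, which overlaps Ndufb5 with 2886 to 3497 counts per library. Overlap was counted over whole gene spans, introns included, and overlap of exons was not counted apart.

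Most genes of the same pathway outside the rule were uncalled, as were most of all tested genes. The background for the lists below is 25.3% called, 13.6% upregulated and 11.7% downregulated. Electron carriers and subunits with other symbols had 2 of 5 upregulated: Cycs, cytochrome c (74.2 to 81.2 CPM, log2 fold change 0.13, SE 0.04, adjusted p = 0.0317), and Usmg5, a small ATP synthase subunit (70.9 to 79.7 CPM, log2 fold change 0.17, SE 0.04, adjusted p = 0.0138). Assembly factors had 4 of 15 downregulated for complex I, led by Ndufaf4 (45.5 to 39.6 CPM, log2 fold change -0.20, adjusted p = 0.00741; DESeq2 called 2 lower and limma voom 3 in this list), 1 of 6 for complex III, which was Uqcc2 (32.3 to 27.3 CPM, log2 fold change -0.24, adjusted p = 0.00468), and 2 of 23 for complex IV, led by the copper chaperone Sco1 (45.6 to 37.7 CPM, log2 fold change -0.27, adjusted p = 0.0122). None of these 3 lists had an upregulated gene in edgeR, DESeq2 or limma voom, and at an unadjusted p under 0.05 they had 1, 0 and 2 higher. The complex II assembly list had no call among 4 genes by any of the 3 tools, nor at an unadjusted p under 0.05. In the complex V list 1 of 3 rose, Tmem70 (20.2 to 24.1 CPM, log2 fold change 0.25, adjusted p = 0.0123).

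**Figure D5:**
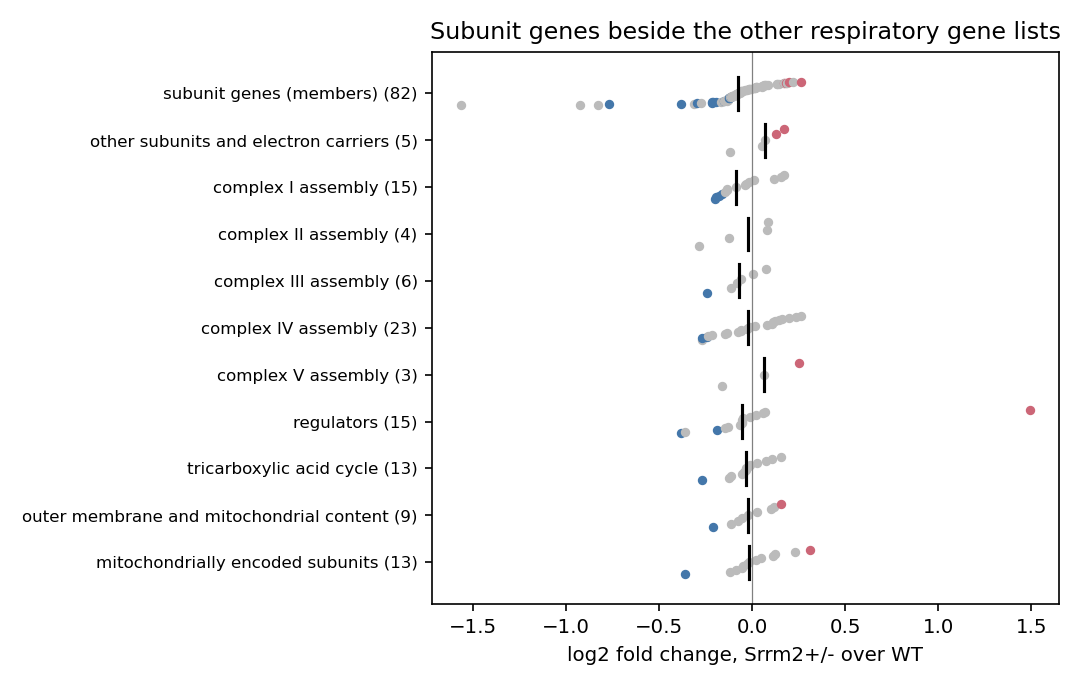
log2 fold change of Srrm2+/- over WT for the members and for the other respiratory gene lists, with the number of tested genes in brackets (points: genes; red: upregulated, blue: downregulated, grey: not called; black bar: median). The medians lie between -0.09 and 0.07, and Myc, at 1.49, is the point farthest from 0 on the upper side.

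Mitochondrially encoded subunits, the partners of these proteins, had 1 of 13 up and 1 down, with a median log2 fold change of -0.02. That is 15.4% called, against 25.3% of all tested genes. mt-Nd6 fell (152.5 to 118.8 CPM, log2 fold change -0.36, SE 0.04, adjusted p = 0.000363). mt-Co2 had 121.3, 112.6 and 117.9 CPM in WT and 121.6, 148.2 and 165.5 CPM in Srrm2+/- libraries (log2 fold change 0.31, SE 0.10, adjusted p = 0.0447), with 1 Srrm2+/- library at the WT level, and its call held in 7 of 15 alternatives. Tricarboxylic acid cycle genes had 1 of 13 called, Idh3g (160.0 to 132.4 CPM, log2 fold change -0.27, SE 0.04, adjusted p = 0.00191). General mitochondrial genes had 1 of 9 up, the import pore gene Tomm40 (112.9 to 125.7 CPM, log2 fold change 0.15, adjusted p = 0.0236), and 1 down, the matrix chaperone Hspa9 (1354 to 1168 CPM, log2 fold change -0.21, adjusted p = 0.0135).

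Of the 15 tested regulators of respiratory genes, 1 was upregulated and 2 downregulated. Myc, a transcription factor of growth genes, had 2.87, 3.70 and 3.85 CPM in WT and 9.64, 9.16 and 10.5 CPM in Srrm2+/- libraries, far apart (log2 fold change 1.49, SE 0.13, adjusted p = 5.42e-05). Esrrb, an oestrogen-related receptor that is also a pluripotency factor, fell from 367.6 to 281.7 CPM (log2 fold change -0.38, SE 0.06, adjusted p = 0.00154), and Gabpa, the DNA-binding subunit of GABP, fell from 226.3 to 198.4 CPM (log2 fold change -0.19, SE 0.04, adjusted p = 0.00589). The other 12 tested regulators, among them Nrf1 (log2 fold change -0.01), Yy1 (-0.05), Esrra (0.06) and Tfam (-0.05), were not called, and Ppargc1a was too low to be tested. Whether these changes bear on the members was not tested.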

How the data were processed

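Total RNA was sequenced from 3 WT and 3 Srrm2+/- cultures, grouped by sample title. Per the study's methods and the submitters' processing notes, the authors pseudo-aligned the reads to GENCODE M24 (mm10) with Kallisto 0.46.1. The authors deposited unnormalised estimated counts for each gene. Reads that fit several transcripts are split between them by Kallisto, so genes with copies can exchange counts. Strand setting, summing tool and filters: not given in the sources used here.

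Estimated counts were rounded. Symbols and positions came from GENCODE M21 on GRCm38 (42156 of 42450 genes matched). Genes past filterByExpr (minimum count 10, minimum total 15) were tested with edgeR 4.0.16 in R 4.3.3 (TMM, glmQLFTest, two-sided, genotype as the only term), and p-values were adjusted over all 18905 tested genes (Benjamini-Hochberg). The SE is the size of the log2 fold change divided by the square root of F. DESeq2 1.42.0 and limma voom (limma 3.58.1) were alternatives, with other normalisations, filters, a replicate block, left-out libraries and counts summed with genes that have at least 50% of their 31-base words in the member. Members without such a gene kept their counts in that last alternative. The fit was tested on simulated data. No set test was run.

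Members given library by library were, per complex, up to 2 called with the largest rise and up to 2 with the largest fall (mean of at least 1 CPM), the isoform pairs and the core or catalytic subunits; some of these are given as mean ± SD. Outside the members, the called genes with the largest rise and fall in each list were named, and further ones were added after their values were seen. The members and lists were chosen with earlier results of these data known. Same-numbered libraries did not deviate together (correlations -0.028, -0.034 and -0.03), so they were not treated as pairs. Libraries of a group differed by more than counting noise (chi-square divided by its degrees of freedom, 14.7 to 27.5). P-values measure the spread between cultures of 1 line per genotype. Depth was 54151532 to 69933465 estimated counts per library.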

Additional observations from a re-analysis of the deposited data

How the results depend on the processing

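No called member changed direction under any alternative, whereas uncalled members near 0 or with few counts could (Ndufa4 from -2.22 to 0.42). The fall of Srrm2 and the medians of all members (-0.10 to -0.06 over all alternatives) kept their direction. At an adjusted p under 0.01, 1574 genes were higher and 1205 lower, with 1 member higher (complex III 1, complexes IV and V 0) and 7 lower (1 each in complexes II, III and V). With a filter of 1 CPM in every library of a group, 7 members were higher, 2 of them in complex I. Of all 13544 genes tested under that filter, 2536 were higher. Keeping only members with under 5% of words elsewhere left 0 higher and 4 lower. limma voom gave 1 higher in complex III; upper quartile scaling gave 1 lower in complex III; a filter of 1 count in all gave 1 lower in complex II and 1 in complex III.

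With the replicate number as a block, although the numbers do not pair the samples, 3 members were higher and 9 lower, with 1 higher and 1 lower in complex III and 1 lower in complex II. Of all 18905 tested genes, 2281 were higher and 1885 lower with the block.

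Leaving out 1 library at a time gave 1 to 5 members higher and 8 to 13 lower. Over all tested genes it gave 1956 to 2257 higher and 1559 to 1865 lower. The lowest count of member rises came without Srrm2+/- replicate 2 and 2 member rises remained without WT replicate 3. By complex, the number higher ran from 0 to 2 (I), 1 to 2 (III), 0 to 1 (IV) and 0 to 1 (V), and the number lower from 2 to 5 (I), 1 to 2 (II) and 1 to 3 (III). The 5 falls in complex I came without WT replicate 1. The median log2 fold change ran from -0.105 to -0.048 in complex I, the latter without WT replicate 2, from -0.12 to -0.081 in complex II and from -0.073 to -0.032 in complex IV. Over the named genes and all alternatives together, 503 values kept their side of the threshold, 42 lost it and 10 gained it, and the causes were not tested. Of the members under 10 CPM (11 of 84), Cox8b and Cox8c were not tested. The others had SEs too large for small changes to be seen at this depth.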
